A study of Mus musculus with 8 samples.

Results

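The genes that hydroxylate collagen in the endoplasmic reticulum were examined in mouse leukemic cells treated with a HIF prolyl hydroxylase inhibitor. They are *P4ha1* and *P4ha2*, the catalytic alpha subunits of collagen prolyl 4-hydroxylase, *P4hb*, its beta subunit, and the lysyl hydroxylase genes *Plod1*, *Plod2* and *Plod3*. These 6 genes were taken by their GENCODE M21 symbols from the 54838 genes listed, and all 6 were among the 12405 genes that passed the filter on low counts. RNA-seq was done on *iMLL-AF9* cells, mouse cells in which doxycycline switches on the *MLL-AF9* fusion oncogene. The labels give bone marrow as the tissue, leukaemic stem cells as the cell type and WT as the genotype for every sample, while the design text of the series speaks of preleukaemic cells. The samples of both groups carry the same transgene and differ, by their labels, only in the treatment. It was either DMSO, the solvent used as vehicle, or IOX5, an inhibitor of the HIF prolyl hydroxylases (PHDs). Each group had 4 RNA samples, numbered 1 to 4. The dose, the duration of treatment, the age of the mice and the meaning of the numbers are not stated for these samples, so the p-values measure the spread between samples, which may be technical in part.

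Collagen prolyl 4-hydroxylase is a tetramer of alpha and beta subunits. The alpha subunit hydroxylates prolines in the collagen repeat, which lets the triple helix stay folded at body temperature, and the beta subunit, also known as protein disulfide isomerase, keeps the complex soluble and also works on its own in disulfide bond formation. The lysyl hydroxylases modify lysines that later carry sugars or form cross-links between collagen molecules. Like the PHDs, the alpha subunits and the lysyl hydroxylases need iron, oxygen and 2-oxoglutarate, and *P4ha1*, *P4ha2*, *Plod1* and *Plod2* are known targets of HIF in hypoxic cells. Collagen is made mainly by stromal cells, not by blood cells.

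*P4ha1* rose 1.44-fold with IOX5 and was the only gene of the 6 called in the comparison of the groups, made with edgeR's quasi-likelihood test at a Benjamini-Hochberg adjusted p under 0.05. Over all genes tested, 0.774% were called higher and 1.25% lower. When the replicate number entered the fit as a block, *P4ha1*, *P4ha2*, *Plod1* and *Plod2* were called higher, against 11.2% of all genes called higher and 9.43% lower. *P4hb*, by far the most abundant transcript of the group, had almost the same level in both groups. *Plod3* was not called in either fit.

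The samples expressed genes of the labelled cells. The pan-leukocyte gene *Ptprc* had a mean of 449.5 CPM (counts per 1000000 reads on genes, scaled with TMM factors) in the DMSO samples, the leukemia transcription factor genes *Hoxa9* and *Meis1* had 250.2 and 104 CPM, and the stem cell receptor gene *Kit* had 74.7 CPM. Of 15 stromal markers, 6 had no read in any library (*Col1a2*, *Dcn*, *Lum*, *Postn*, *Ibsp* and *Sp7*), and the 15 together came to 5.52 to 8.86 CPM with DMSO and 6.04 to 8.73 CPM with IOX5. The summed level of other markers moved with the treatment. The 10 macrophage markers, none of them at 0 reads, summed to 173.9 to 222.4 CPM with DMSO and 255.5 to 558.9 CPM with IOX5. The 7 megakaryocyte markers, of which 1 had no read, summed to 26.4 to 72.04 CPM and 90.6 to 149.2 CPM. The 7 endothelial markers, which share *Vwf* with the megakaryocyte list and of which *Tek* and *Emcn* had no read, summed to 14.9 to 19.0 CPM and 27.1 to 56.8 CPM. Most of this was *Vwf*, with means of 9.57 CPM with DMSO and 31.3 CPM with IOX5 (adjusted p = 0.0442 in edgeR without the block). *Tie1* had 3.70 and 7.40 CPM and *Flt1* 2.78 and 2.79 CPM. *Cdh5* and *Kdr*, with 32 and 51 reads in all libraries, were not tested. The sums of the 10 granulocyte markers (4789 to 7549 and 5495 to 8423 CPM) and of the 9 mast cell and basophil markers (187.7 to 725.4 and 329.8 to 1137 CPM) overlapped between the groups but were higher with IOX5 in 4 of 4 numbers. The block called 8 of 10 and 8 of 8 tested of these markers higher, against 11.2% of all genes. The part of these cells in the results that follow was not tested, and in bulk RNA a change in the share of a cell type and a change in the RNA per cell cannot be told apart. Libraries held 12343770 to 14116054 reads on genes with DMSO and 11351507 to 12708888 with IOX5.

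Promoter sequences from RefSeq (GRCm38.p6) were matched by symbol for 5 of the 6 genes, all but *Plod2*. The 250 bases before the start site are shown for *P4ha1* and *Plod1*, whose IOX5 samples all lay above all DMSO samples, and for *P4hb*, whose groups overlapped. They are written 5′ to 3′ on the strand of the gene, and capitals mark ACGTG or GCGTG, the core of the element that HIF binds, read on either strand (as CACGT or CACGC where it lies on the other strand). The letters CACGTG, which hold ACGTG on both strands, would count as 2 matches. The *P4ha1* window is chr10:59323046-59323295 on the plus strand, the *Plod1* window is chr4:147936777-147937026 on the minus strand, and the *P4hb* window is chr11:120573254-120573503 on the minus strand. No annotated exon lies in these windows.
*P4ha1*: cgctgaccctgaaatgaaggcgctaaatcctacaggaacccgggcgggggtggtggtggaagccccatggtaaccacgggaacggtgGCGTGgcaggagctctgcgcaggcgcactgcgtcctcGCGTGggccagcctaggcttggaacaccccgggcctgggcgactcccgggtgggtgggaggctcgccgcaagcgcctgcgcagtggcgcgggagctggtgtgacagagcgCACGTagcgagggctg
*Plod1*: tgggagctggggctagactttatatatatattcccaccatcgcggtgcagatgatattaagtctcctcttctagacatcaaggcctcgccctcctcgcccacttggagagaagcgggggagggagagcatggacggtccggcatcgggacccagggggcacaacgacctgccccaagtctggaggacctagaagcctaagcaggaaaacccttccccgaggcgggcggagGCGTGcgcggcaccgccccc
*P4hb*: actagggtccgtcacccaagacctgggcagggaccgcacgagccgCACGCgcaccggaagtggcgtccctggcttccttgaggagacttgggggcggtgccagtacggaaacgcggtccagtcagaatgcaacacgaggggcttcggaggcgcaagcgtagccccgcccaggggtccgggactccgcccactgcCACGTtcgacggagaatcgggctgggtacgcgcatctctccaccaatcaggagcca
*P4ha1* held 3 matches, which began 163, 126 and 16 bases before the start site. *Plod1* held 1 match, 20 bases before it, and *P4hb* held 2. The windows of *P4ha2* and *Plod3*, not printed, held 3 and 4. A match was common: 38.6% of all 32851 promoter windows of this length and 56.0% of the 11874 windows of tested genes held at least 1, and 6.58% and 12.1% held at least 3. The printed windows of *P4ha1*, *Plod1* and *P4hb* had a GC content of 69.6%, 61.6% and 66.8%. Among the 5915 windows of tested genes with at least 60% GC, 67.7% held at least 1 match and 17.6% at least 3. Each match describes the letters alone and is not evidence of binding.

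*P4ha1* (ENSMUSG00000019916, chr10:59323296-59373304, plus strand) encodes the alpha subunit of the common form of the prolyl hydroxylase. Its level was 83.2, 72.1, 105, and 89.4 CPM in DMSO samples 1 to 4 and 119, 128, 130 and 128 CPM in IOX5 samples 1 to 4. The groups did not overlap, and the IOX5 samples lay closer together than the DMSO samples. The means were 87.5 ± 13.8 CPM with DMSO and 126 ± 5.1 CPM with IOX5 (SD, n = 4 each). Over all genes, every IOX5 sample lay above every DMSO sample for 5.98%. The log2 fold change was 0.53 (SE 0.11, 95% confidence interval 0.29 to 0.77, adjusted p = 0.0469), and 0.54 (SE 0.079, adjusted p = 0.00065) with the block. The exact two-sided permutation test of the *P4ha1* levels gave p = 0.0286, the smallest that 4 samples against 4 allow. The call without the block was lost when any 1 of the 8 samples was left out: the adjusted p then ran from 0.0569 to 0.133 and the log2 fold change from 0.45 to 0.63.

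*P4ha2* (ENSMUSG00000018906, chr11:54100095-54131665, plus strand) encodes the alternative alpha subunit and was close to the limit of detection. It had 35, 17, 12 and 13 reads in DMSO samples 1 to 4 and 50, 50, 15 and 19 reads in IOX5 samples 1 to 4. These reads correspond to 2.47, 1.32, 0.98 and 1.004 CPM with DMSO and 4.004, 4.44, 1.17 and 1.65 CPM with IOX5. Numbers 1 and 2 were high with IOX5 and numbers 3 and 4 stayed within the range of the DMSO samples. The means were 1.44 ± 0.70 and 2.82 ± 1.6 CPM (SD, n = 4 each). The log2 fold change of *P4ha2* was 0.95 (SE 0.49, 95% confidence interval -0.16 to 2.06, adjusted p = 0.321) without the block and 0.93 (SE 0.25, adjusted p = 0.0212) with it. Without the block, the log2 value ran from 0.65 with IOX5 sample 2 left out to 1.35 with DMSO sample 1 left out. The *P4ha2* call made with the block was lost when number 2 was left out (adjusted p = 0.123) and in DESeq2 with the same block (adjusted p = 0.12), where 7.66% of all genes were called higher.

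*P4hb* (ENSMUSG00000025130, chr11:120560298-120573253, minus strand) had 1839, 1809, 1730 and 1696 CPM in the DMSO samples and 1792, 1834, 1723 and 1802 CPM in the IOX5 samples. The ranges lay almost on top of each other, at 1768 ± 67.0 and 1788 ± 46.5 CPM (SD, n = 4 each). The log2 fold change was 0.016 (SE 0.052, adjusted p = 0.895), and its 95% confidence interval, -0.10 to 0.13, leaves out the fitted value of *P4ha1*. The level of *P4hb* was higher with IOX5 within 2 of the 4 numbers, by factors that ran from 0.974 to 1.06.

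**Figure D1:**
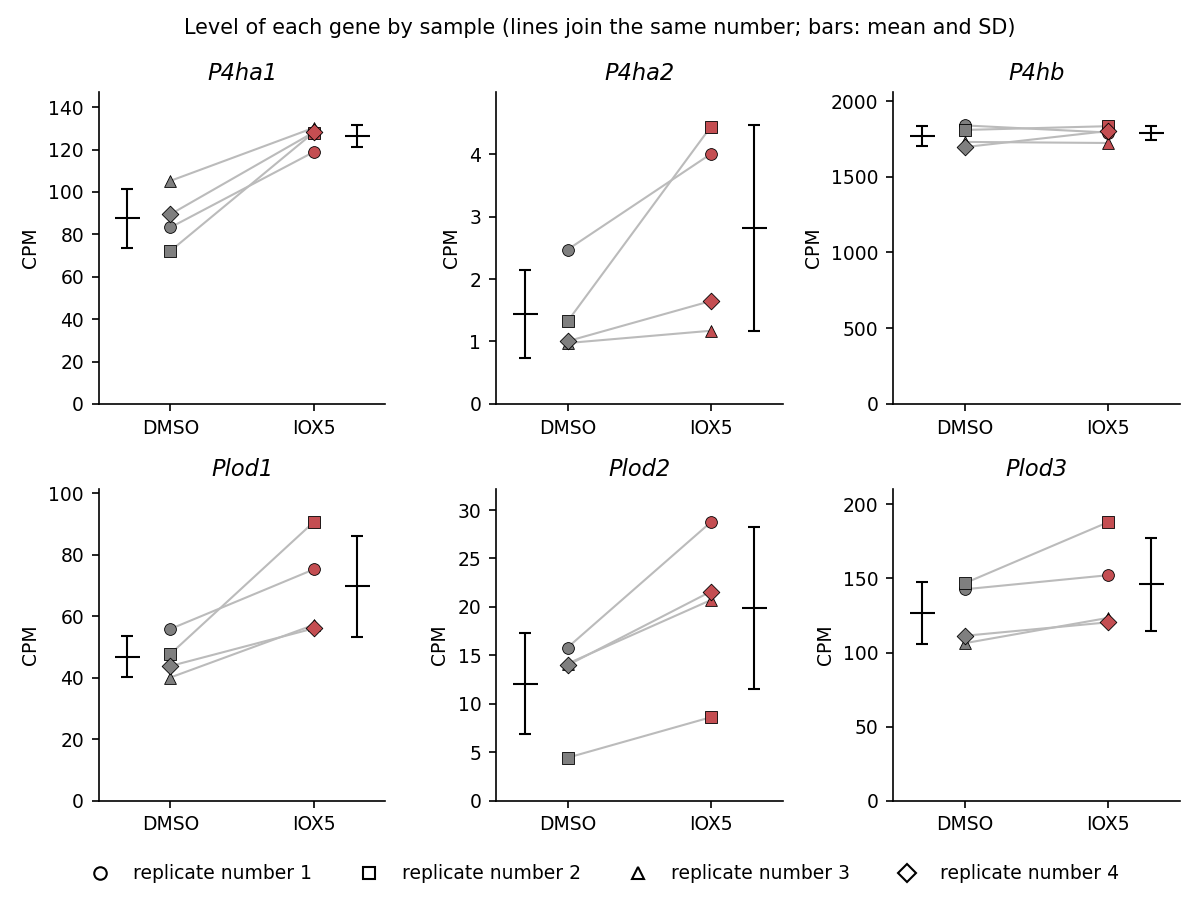
Level of each gene in each sample, in CPM on axes that start at 0, for 4 DMSO samples (grey) and 4 IOX5 samples (red). Marker shapes give the replicate number, lines join samples with the same number, and the black bars beside the points are the mean and SD. The IOX5 samples of *P4ha1* and *Plod1* lie above all DMSO samples, *P4hb* is level, and the points of number 2 are the lowest of each group for *Plod2*.

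Among the lysyl hydroxylases, *Plod1* (ENSMUSG00000019055, chr4:147909753-147936767, minus strand) encodes the enzyme that acts on lysines within the collagen helix. Its level was 55.8, 47.7, 40.0 and 43.8 CPM in DMSO samples 1 to 4 and 75.2, 90.6, 57.1 and 56.0 CPM in IOX5 samples 1 to 4. The groups did not overlap, but the lowest IOX5 sample, number 4, was within 1 CPM of the highest DMSO sample, number 1. The means were 46.8 ± 6.76 and 69.7 ± 16.4 CPM (SD, n = 4 each). *Plod1* had a fitted log2 fold change of 0.57 (SE 0.17, 95% confidence interval 0.19 to 0.96, adjusted p = 0.108) in edgeR without the block, so it was not called. With the block it was 0.56 (SE 0.089, adjusted p = 0.00109). DESeq2 without a block also called it (adjusted p = 0.0182), where 3.94% of all genes were called higher, as did limma's voom with sample weights (adjusted p = 0.0468), where 3.43% were. The exact permutation p was 0.0286. In edgeR without the block, the *Plod1* log2 value fell to 0.42 when IOX5 sample 2 was left out. Over the 8 omissions of a sample, its adjusted p ran from 0.0681 to 0.259.

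*Plod2* (ENSMUSG00000032374, chr9:92542223-92608428, plus strand) encodes the enzyme that acts on the collagen telopeptides, the ends where stable cross-links form. Its level was 15.8, 4.43, 14.1 and 14.0 CPM in DMSO samples 1 to 4 and 28.7, 8.61, 20.7 and 21.6 CPM in IOX5 samples 1 to 4. Number 2 had by far the lowest level in each group, so the groups overlapped, although every IOX5 sample was above the DMSO sample of its own number. The means were 12.1 ± 5.17 and 19.9 ± 8.35 CPM (SD, n = 4 each). For *Plod2* the fitted log2 fold change was 0.72 (SE 0.43, 95% confidence interval -0.25 to 1.69, adjusted p = 0.387) without the block. It was 0.73 (SE 0.11, adjusted p = 0.000615) with the block, and 0.69 (adjusted p = 3.03e-05) with the block and number 2 left out of both groups. Without the block, the log2 value fell to 0.44 when DMSO sample 2 was left out and rose to 0.97 when IOX5 sample 2 was left out. A gene model on the opposite strand, *Gm38391*, shares 346 exon bases with *Plod2* and had 55 reads over the 8 libraries against 1606 of *Plod2*.

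*Plod3* (ENSMUSG00000004846, chr5:136987019-136996648, plus strand) encodes an enzyme that hydroxylates lysines and also adds sugars to them. Its level was 143, 147, 106 and 111 CPM in DMSO samples 1 to 4 and 152, 188, 123 and 120 CPM in IOX5 samples 1 to 4. Numbers 1 and 2 were above numbers 3 and 4 in both groups, and the groups overlapped. The means were 127 ± 20.9 and 146 ± 31.5 CPM (SD, n = 4 each). In the fits, *Plod3* had a log2 fold change of 0.20 (SE 0.16, 95% confidence interval -0.17 to 0.58, adjusted p = 0.531) without the block and 0.20 (SE 0.067, adjusted p = 0.0529) with it. Without the block the log2 value dropped to 0.059 when IOX5 sample 2 was left out. *Znhit1*, on the opposite strand, shares 529 exon bases with *Plod3*. It had 4040 reads against 13642 of *Plod3*. The strand setting of the counting is not stated. The antisense pair *Xist* (105071 reads) and *Tsix* (21 reads) speaks only against a reversed setting. Counting without strand sets shared reads aside as ambiguous, so this pair cannot show that reads of *Znhit1* and *Plod3* were told apart.

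**Figure D2:**
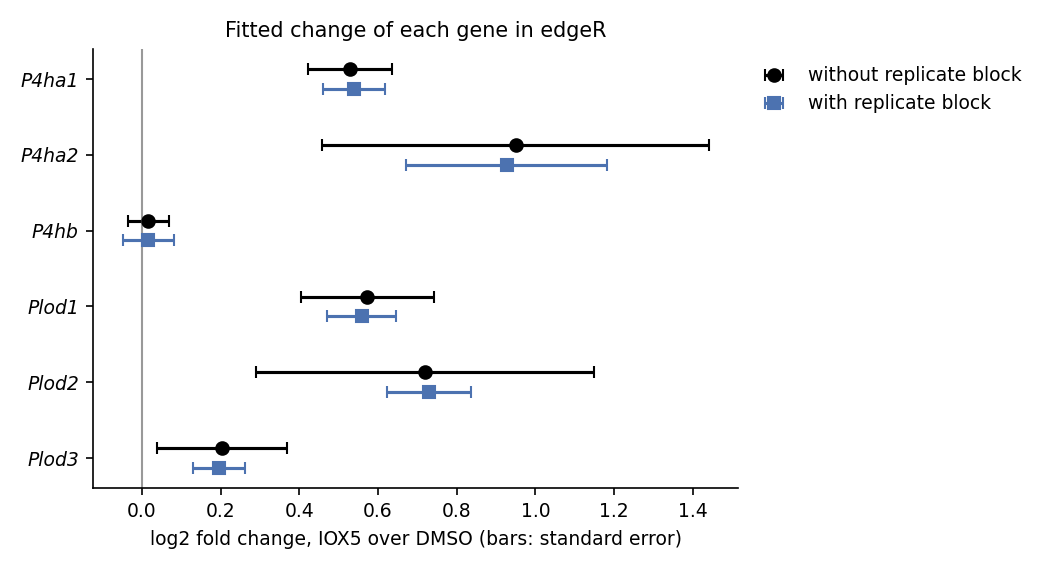
Fitted log2 fold change of each gene, IOX5 over DMSO, from edgeR without (black circles) and with (blue squares) the replicate number as a block, with bars for the standard error. The fitted values of both fits nearly coincide, the bars shrink with the block for every gene but *P4hb*, and *P4hb* alone lies at 0.

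Within replicate numbers, *P4ha1*, *P4ha2*, *Plod1*, *Plod2* and *Plod3* were higher with IOX5 in 4 of 4 numbers, as were 21.3% of all genes tested. The increase of *P4ha1* was 1.43, 1.77, 1.24 and 1.43-fold in numbers 1 to 4. For *Plod1* the factors were 1.35, 1.90, 1.43 and 1.28, and for *Plod2* they were 1.82, 1.94, 1.47 and 1.54. Number 2 thus gave the largest factor for each of these genes. The factors of *Plod3* were smaller, between 1.07 and 1.28, and those of *P4ha2*, which rest on few reads, ran from 1.20 to 3.36. *Plod2* shows what the pairing changes: the SD of its 4 within-number differences was 0.18 on the log2 scale, against an SD of 0.85 among the DMSO samples and 0.74 among the IOX5 samples. For *P4ha1* the SD of the differences, 0.21, was close to that among the DMSO samples, 0.23.

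The 6 genes differed widely in level. Per kb of exon, *P4hb* lay between 593 and 643 CPM in all samples, above 99.7% of the tested genes. *Plod3* followed at 23.5 to 41.6 CPM per kb and *P4ha1* at 17.5 to 31.6. These neighbours were not separated, since *Plod3* was above *P4ha1* in 5 of the 8 samples. Below them came *Plod1* at 5.92 to 13.4, *Plod2* at 0.822 to 5.33 and *P4ha2* at 0.156 to 0.712 CPM per kb. Each was below the gene before it in 8 of 8 samples. *P4ha1* made up 97.8% to 99.4% of the alpha subunit reads per kb. The third alpha subunit gene, *P4ha3*, had no read in any library.

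**Figure D3:**
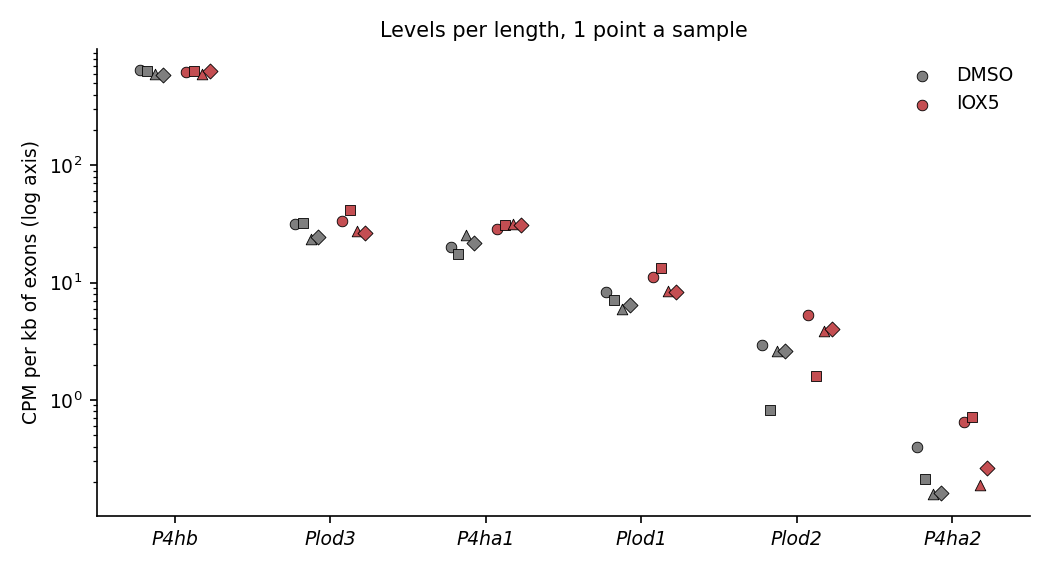
Level per length of each gene, in CPM per kb of exon on a log axis, with 1 point for each DMSO (grey) and IOX5 (red) sample and marker shapes for the replicate numbers as in the plot by sample. *P4hb* lies far above the others, *Plod3* and *P4ha1* share a range, and *P4ha2* is lowest.

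Ratios of reads within a library compare genes without any scaling between libraries. *P4ha1* had 0.0399 to 0.0608 reads for each read of *P4hb* with DMSO and 0.0663 to 0.0756 with IOX5. The alpha subunit was higher relative to the beta subunit in 4 of 4 numbers, by 0.53 on the log2 scale (exact permutation p = 0.0286, adjusted p = 0.0715 over the 5 ratios compared). *Plod1* had 0.325 to 0.394 reads for each read of *Plod3* with DMSO and 0.463 to 0.494 with IOX5, with no overlap, a log2 difference of 0.36 and the same p-values (exact permutation p = 0.0286, adjusted p = 0.0715). With 2 of 5 ratios at the smallest p that the exact test allows, the adjusted p cannot be lower than this. The ratio of *Plod2* to *Plod3* was also higher in 4 of 4 numbers, by 0.55 (exact p = 0.457), but number 2 had the lowest ratio in both groups. Without DMSO sample 2 this difference was 0.049, and without IOX5 sample 2 it was 1.04. *Plod1* relative to *Plod2* was lower with IOX5 in 4 of 4 numbers, by -0.19 on the log2 scale (exact p = 0.457), and *P4ha1* relative to *P4ha2* differed by -0.31 (exact p = 0.629). As a share of the lysyl hydroxylase reads per kb, *Plod1* went from 17.5% to 19.3% in the DMSO samples to 21.3% to 23.7% in the IOX5 samples, and *Plod3* held 73.1% to 80.5% and 67.2% to 73.5%.

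**Figure D4:**
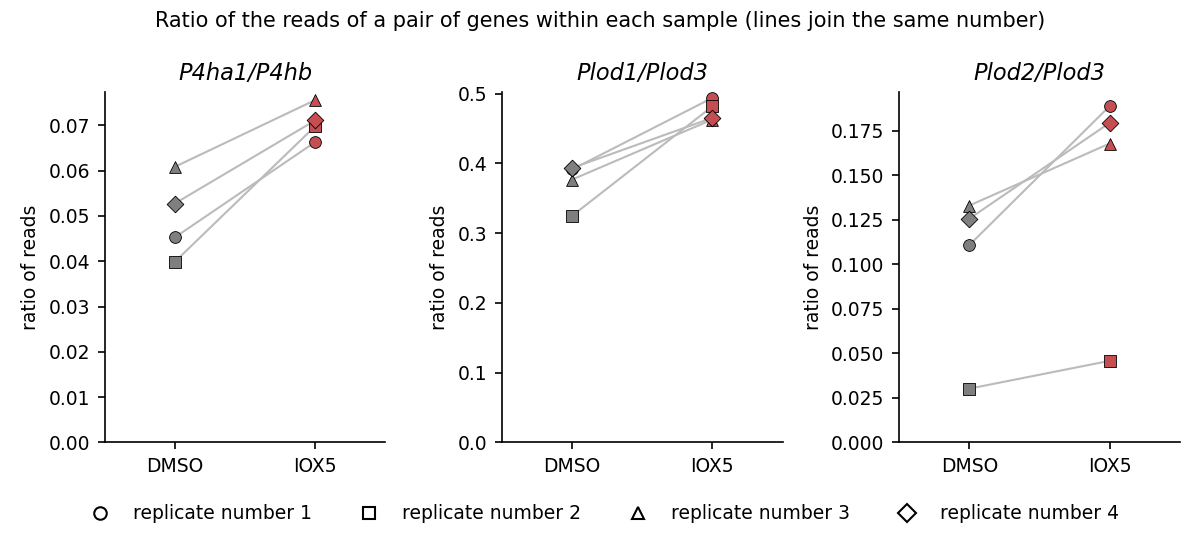
Ratio of the reads of a pair of genes within each sample, on axes that start at 0, with lines between samples of the same number. *P4ha1* relative to *P4hb* and *Plod1* relative to *Plod3* are higher in all IOX5 samples, and number 2 is lowest for *Plod2* relative to *Plod3* in both groups.

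Among replicates, some of the genes moved together and others did not. After the group means were taken off, the log2 levels of *Plod1* and *Plod3* correlated over the 8 samples with r = 0.94, *P4ha2* and *Plod1* with r = 0.94 and *P4ha2* and *Plod3* with r = 0.85, whereas *P4ha1* and *Plod3* had r = -0.59 and *Plod2* and *Plod3* r = -0.62. These are descriptions of 8 libraries that share 4 numbers. The tested genes whose log2 CPM followed each gene most closely over all 8 samples were *Gstm1* (r = 0.990), *Nlk* (0.985) and *P2rx4* (0.979) for *P4ha1*, and *Adcy3* (0.984), *Zfp839* (0.983) and *Rnf166* (0.983) for *Plod1*. For *Plod2* they were *Slc25a23* (0.996), *Rell2* (0.990) and *Sept1* (0.988), and for *Plod3* *Pbxip1* (0.996), *Plxna1* (0.992) and *Fblim1* (0.991). *P4ha2* was followed by *Cyp4f17* (0.976), *Acad10* (0.969) and *Itgax* (0.968), the last a surface marker of dendritic cells and macrophages, and *P4hb* by *Wfdc18* (0.964), *Fzd6* (0.951) and *Pelo* (0.944). They are the best of 12404 genes each.

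Other genes of collagen modification in the endoplasmic reticulum showed no call in edgeR without the block. DESeq2 and voom without a block each called 3 higher, against 3.94% and 3.43% of all genes. Of 14 genes, 7 were tested, and their median log2 fold change was 0.16, against 0.017 for all genes. *Colgalt1*, which adds galactose to hydroxylysine, had 199 ± 15.4 CPM with DMSO and 239 ± 12.9 CPM with IOX5 (SD, n = 4 each), and no overlap. This was 0.26 on the log2 scale (adjusted p = 0.0886). The block brought the p to 0.0108, and DESeq2 and voom gave 0.00574 and 0.033. *Crtap*, which encodes a partner of prolyl 3-hydroxylase, was called with the block (log2 fold change 0.28, adjusted p = 0.0196) and by DESeq2 and voom (0.0382 and 0.0284), but in only 2 of the 4 blocked fits that left out a number. *Ppib*, a proline isomerase that helps the helix to fold, had 211 ± 4.07 and 236 ± 2.05 CPM (SD, n = 4 each) and an adjusted p of 0.107, or 0.0815 with the block, against 0.00101 in DESeq2 and 0.0357 in voom. *Serpinh1*, the collagen chaperone HSP47, had 1 read in all libraries, and *Fkbp10* had 2.

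Transcripts of collagen itself were few. Of 44 annotated collagen chain genes, 7 had no read and 11 were tested, with no call and a median log2 fold change of 0.18. The 44 genes together came to 56.9 to 68.0 CPM with DMSO and 65.9 to 84.02 CPM with IOX5. *Col11a2* accounted for most of this, with 39.8 ± 3.61 and 45.2 ± 3.26 CPM (SD, n = 4 each, adjusted p = 0.275), and *Col4a2*, of basement membrane collagen, had 6.45 ± 0.855 and 7.78 ± 1.69 CPM (adjusted p = 0.469). Of these chains the block called *Col18a1* (log2 fold change 0.92, adjusted p = 0.0153), and the call was lost in 1 of 4 blocked fits that left out a number. *Col1a1*, of type I collagen, had 86 reads in all libraries, and *Col3a1*, of type III collagen, had 1.

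Of 13 genes for the extracellular processing and cross-linking of collagen, only *Lox* and *Adamts3* passed the filter, and neither was called without the block. *Lox*, which oxidizes lysines for cross-linking and is a known HIF target, had 44.3, 27.4, 8.61 and 10.04 CPM in DMSO samples 1 to 4 and 17.9, 11.7, 3.44 and 3.99 CPM in IOX5 samples 1 to 4. It was lower with IOX5 in 4 of 4 numbers while the groups overlapped, with a log2 fold change of -1.29 (SE 0.66, adjusted p = 0.319). With the block, *Lox* fell by 1.29 on the log2 scale (adjusted p = 1.16e-05), opposite in direction to *P4ha1*, *Plod1* and *Plod2*. *Adamts3*, a procollagen peptidase, had 3.63 ± 0.45 and 2.54 ± 0.524 CPM (SD, n = 4 each, adjusted p = 0.217).

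Of 14 genes for other substrates of the enzymes, 6 were tested and 1 was called. This was *Ago2*, which has no collagen domain and acts in RNA silencing, and whose protein is a substrate of the prolyl 4-hydroxylase. *Ago2* had 253, 241, 224 and 245 CPM in DMSO samples 1 to 4 and 187, 187, 178 and 158 CPM in IOX5 samples 1 to 4. *Ago2* thus fell by 0.44 on the log2 scale (SE 0.072, adjusted p = 0.026), with no overlap between the groups, and the adjusted p was 0.000934 with the block. Without the block the call was lost in 6 of 8 omissions of a sample (adjusted p from 0.0553 to 0.119). The block also called *Fcnb*, *Msr1* and *Colec12* higher, against 11.2% of all genes. *Fcnb*, *Msr1* and *Colec12* encode a ficolin, a macrophage scavenger receptor and a collectin with collagen-like domains. *Colec12* had 3.70 ± 2.55 and 11.5 ± 12.3 CPM (SD, n = 4 each) and an adjusted p of 0.285 without the block. Its log2 fold change, 1.62 without the block, dropped to 0.57 when IOX5 sample 2 was left out, the library with the highest summed macrophage markers. The call of *Msr1* was lost in DESeq2 with the block (adjusted p = 0.195) and in 2 of 4 blocked fits that left out a number. Of the macrophage markers, *Adgre1* and *Mrc1* were called higher with the block (adjusted p = 0.000185 and 0.000416) and by DESeq2 without it (0.000576 and 0.00224), and the part of such cells in the levels of *Msr1* and *Colec12* was not tested.

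Most relatives of *P4hb* were not called either. Of 18 protein disulfide isomerases and their oxidases, 16 were tested, with a median log2 fold change of -0.057. *Txndc12*, a small thioredoxin-like protein of the endoplasmic reticulum, was called. The IOX5 samples had 83.7 ± 3.78 CPM and the DMSO samples 67.0 ± 3.19 CPM (SD, n = 4 each) and did not overlap, an increase of 0.32 on the log2 scale (adjusted p = 0.0396). This call was lost without a filter on low counts (adjusted p = 0.0686) and in 7 of 8 omissions of a sample (0.0531 to 0.127). *Txndc5* had 214 ± 21.1 and 169 ± 20.2 CPM (SD, n = 4 each) and an adjusted p of 0.108, and with the block it fell by 0.35 on the log2 scale (adjusted p = 0.00271). DESeq2 without a block also called *Txndc5* lower (adjusted p = 0.0261), while voom did not (0.0686). The block also called *Dnajc10* lower (log2 fold change -0.24, adjusted p = 0.0279), a call kept in 2 of 4 blocked fits that left out a number. *Pdia3*, *Pdia4* and *Pdia6*, the abundant relatives, had log2 fold changes between -0.063 and 0.044, and none was called in either fit.

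Of 16 other 2-oxoglutarate-dependent protein hydroxylases, 13 were tested and 1 was called. *Egln1*, which encodes PHD2 and is itself a HIF target, had 81.5, 57.3, 62.5 and 64.6 CPM in DMSO samples 1 to 4 and 100.3, 92.4, 94.1 and 93.2 CPM in IOX5 samples 1 to 4. Its increase without overlap was 0.51 on the log2 scale (SE 0.10, adjusted p = 0.0469), close to that of *P4ha1*. The call was lost with counts thinned to the smallest library (adjusted p = 0.0601) and in 7 of 8 omissions of a sample (0.0541 to 0.142). The block also called *Egln3*, which encodes PHD3 (log2 fold change 0.90, adjusted p = 3.1e-05), and *Jmjd6* (0.22, adjusted p = 0.039) higher, and *Ogfod1*, a ribosomal prolyl hydroxylase gene, lower (-0.25, adjusted p = 0.02). Without a block, DESeq2 called *Egln3* (adjusted p = 0.0175) and *Jmjd6* (0.0457), and voom called *Egln3* (0.0476) but not *Jmjd6* (0.0646). *Ogfod1* was called by neither (0.322 and 0.296). DESeq2 and voom without a block called 3.94% and 3.43% of all genes higher. In DESeq2 with the block, *Egln3* was called but *Jmjd6* (adjusted p = 0.0889) and *Ogfod1* (0.0766) were not, and the edgeR calls of *Jmjd6* and *Ogfod1* with the block were kept in 1 and 2 of the 4 fits that left out a number. *Jmjd6*, a lysyl hydroxylase of nuclear proteins, had 54.1 ± 3.38 and 62.8 ± 2.67 CPM (SD, n = 4 each) and an adjusted p of 0.113 without the block. *Hif1an*, the asparaginyl hydroxylase of HIF, had a log2 fold change of -0.12 and was not called in either fit. The median log2 fold change of the 13 genes was 0.12.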

How the data were processed

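RNA-seq was done on 8 samples, with groups taken from the sample titles. According to the methods and the submitters' processing notes, the authors made directional poly(A) libraries, trimmed single-end reads with cutadapt 1.18, mapped them to GRCm38 with HISAT2 2.2.1 and produced the deposited counts per Ensembl gene with HTSeq 2.0.1, without normalization. The annotation release of the counting is not given in the sources used here. Lines for unassigned reads (20.6% to 22.6% of reads) were left out. Of the 54838 identifiers, 54809 matched GENCODE M21, the source of names, coordinates and exon lengths.

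Counts were tested with R 4.3.3 and edgeR 4.0.16 (filterByExpr, TMM, glmQLFTest, all 8 samples) with Benjamini-Hochberg adjustment over 12405 genes. The design without a block follows the methods, which name none. Deviations from the group means were shared by samples of the same number (correlations of 0.758, 0.744, 0.732 and 0.636 for numbers 1 to 4). The fit with the number as a block is therefore given where it changes a call. DMSO sample 4 correlated more with IOX5 sample 3 (0.685) than with IOX5 sample 4, so numbers 3 and 4 were not clearly separated. The other correlations between numbers were at most 0.617. Log2 CPM used a prior count of 2, and an exact permutation test (two-sided, 70 assignments) was used for single values. Alternatives used DESeq2 1.42.0, limma 3.58.1 (voom), other factors and filters, thinned counts and omitted samples, and the steps were tested on simulated data. The genes and lists were chosen with earlier results of these data known. All 6 genes are named, with the called genes and the 2 of smallest p in each pathway list, other list genes called with the block, markers that check the label, and the 3 genes most correlated with each. Other genes named, such as those at few reads, were chosen after their values were seen.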

Additional observations from a re-analysis of the deposited data

Results flagged for a closer look

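Samples far from the others of their group, by the gap to the nearest sample relative to the range of the group, were looked for in 46 groups of 4 values: 5 were found, where chance marks about 1 in 20 groups. All 5 concern *Plod2* in the samples numbered 2. The level of *Plod2* was 4.43 CPM in DMSO sample 2, where the other 3 DMSO samples had 14.0 to 15.8 CPM. The ratio of *Plod2* to *Plod3* reads was 0.0302 in DMSO sample 2 and 0.0458 in IOX5 sample 2. The ratio of *Plod1* to *Plod2* reads was 10.7 in DMSO sample 2 and 10.5 in IOX5 sample 2, against 2.59 to 3.53 in the other 6 samples. These 5 values rest on the same low *Plod2* level and are not independent of each other.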

How the results depend on the processing

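The number of collagen hydroxylase genes called higher with IOX5, 1 in edgeR without a block, was 4 with the replicate block, 2 with DESeq2 and 2 with voom and sample weights, where 11.2%, 3.94% and 3.43% of all genes were called higher. It was 4, 3, 4 and 5 with the block when number 1, 2, 3 or 4 was left out of both groups (8.07%, 9.03%, 5.14% and 10.9% of all genes), and 3 (*P4ha1*, *Plod1* and *Plod2*) with DESeq2 and the replicate block (7.66%), an alternative chosen after seeing the data. It was 0 in all 8 fits that left out a sample, which have fewer samples. In 3 of these omissions no gene at all was called by edgeR, although 1846 to 2111 genes had an unadjusted p under 0.05. No gene of the 6 was called lower under any alternative. The log2 fold change was above 0 in all 21 alternatives for *P4ha1*, *P4ha2*, *Plod1*, *Plod2* and *Plod3*. It passed the threshold in 13 of them for *P4ha1*, 4 for *P4ha2*, 8 for *Plod1*, 6 for *Plod2* and 1 for *Plod3* (adjusted p = 0.0489, with the block and number 4 left out). That fit gave -0.0046 for *P4hb* (adjusted p = 0.969). The log2 difference of the ratio of *Plod1* to *Plod2* ran from -0.69 without IOX5 sample 2 to 0.25 without DMSO sample 2. Among the 6 genes and the genes named from the pathway lists for their call or p without the block, the block changed the call of *P4ha2*, *Plod1*, *Plod2*, *Colgalt1*, *Lox*, *Colec12*, *Txndc5* and *Jmjd6* and of no other. *P4ha2* rests on 12 to 50 reads a library. The cause of these differences was not tested.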
